A study of Mus musculus with 6 samples.

Results

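The genes described here encode the cytoplasmic adaptors and kinases that carry the signal of Toll-like and interleukin-1 receptors, together with the Toll-like receptor co-receptor MD-2 and the inhibitor Tollip. The members were chosen by gene name, and all 9 of them (Myd88, Tirap, Irak1, Irak2, Irak3, Irak4, Traf6, Ly96 and Tollip) were found among 47561 features. RNA sequencing was done on mouse neutrophils that had been flow sorted from peripheral blood. The control group held 3 samples labelled as negative control, and the other group held 3 samples from mice treated with AVP over 30 days. AVP is not spelled out in the labels, which also name no strain, sex or age. Whether replicates are separate mice is not stated either, so a p-value here reflects only the spread among samples, which could be technical. Levels are in FPKM (fragments per kilobase of transcript, relative to depth), a unit corrected for length, so genes of different length can be compared.

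Toll-like receptors sense microbial molecules, and receptors of the interleukin-1 family sense cytokines; both kinds carry the same intracellular TIR domain. The adaptor MyD88 binds that domain, in some receptors through the bridging adaptor TIRAP, and gathers the kinase IRAK4 and then IRAK1 or IRAK2 into a signalling complex. The complex engages the ubiquitin ligase TRAF6, which leads through the kinase TAK1 to NF-kB and the MAP kinases. IRAK3, also called IRAK-M, and Tollip are known as brakes on this route, and MD-2, the product of Ly96, is the partner of TLR4 that binds lipopolysaccharide. Neutrophils use the route to respond to bacteria and to interleukin-1.

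The libraries held 10628 to 12195 features above 0 FPKM, at an estimated depth of about 14199000 to 16845000 fragments. All 10 mature neutrophil markers were found and together stood at 165785 to 194096 FPKM in every library. Most of that sum was S100a8 and S100a9. Of the 10, Retnlg was at 4925, 5057 and 5538 FPKM in the controls and higher after AVP, at 10512, 11050 and 9729 FPKM. Mmp9 was at 374.3, 229.5 and 231.1 FPKM in the controls and lower after AVP, at 197.4, 100.5 and 143.1 FPKM. The groups overlapped in the other neutrophil markers. Markers of other blood cells were also present: the summed monocyte markers reached 501.8 to 1103 FPKM in the controls and 208.7 to 1042 FPKM after AVP. Summed T and NK cell markers stood at 159.1 FPKM in AVP replicate 3 and at 2.415 to 16.22 FPKM in the other libraries, and summed basophil markers at 337.1 FPKM in AVP replicate 1. Summed B cell markers were at 6049, 7751 and 4916 FPKM in the controls and at 1264, 4847 and 3795 FPKM after AVP, so every AVP library lay below every control. Summed red cell markers ranged from 102677 to 242590 FPKM and were highest in AVP replicate 1. The part of B cell and red cell RNA in the results below was not tested. In bulk RNA, fewer cells of a type and less RNA per cell cannot be told apart.

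By mean level, Myd88 and Ly96 were the most abundant of the 9 genes, and Traf6 the least abundant. Averaged over the 6 libraries, Ly96 was at 101.6 FPKM, Myd88 at 89.58, Irak4 at 20.55, Irak3 at 14.69, Irak1 at 6.704, Irak2 at 6.462, Tirap at 6.153, Tollip at 4.983 and Traf6 at 1.118 FPKM. The step from Myd88 to Irak4, a 4.358-fold ratio of means, was the only step between neighbours in this order at which the 6 values of one gene lay wholly above those of the next. Ly96 exceeded Myd88 in 5 of 6 libraries and Irak4 exceeded Irak3 in 5 of 6, while Irak1 exceeded Irak2 in 3 of 6. Tollip exceeded Traf6 in 4 of 6, so Traf6 was not the lowest in control replicates 2 and 3. Neighbours from Irak3 down to Traf6 overlapped in range. Some genes farther apart in the order kept it within every library, though their ranges could overlap. Irak3 exceeded Tirap in 6 of 6 libraries, and Irak3, Irak1, Irak2 and Tirap each exceeded Traf6 in 6 of 6. Others did not keep it: Irak3 exceeded Irak2 in 4 of 6 libraries and Irak1 exceeded Tollip in 3 of 6. Ly96 exceeded Irak4 and Irak3 in 5 of 6 each and lay below both in control replicate 2. Myd88 and Ly96 together made up 74.3% to 81.6% of the summed level of the 9 genes in 5 libraries and 54% in control replicate 2. Myd88 stood above 92.2% of the 8523 features tested by its mean level, and Traf6 above 2.3%.

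**Figure D1:**
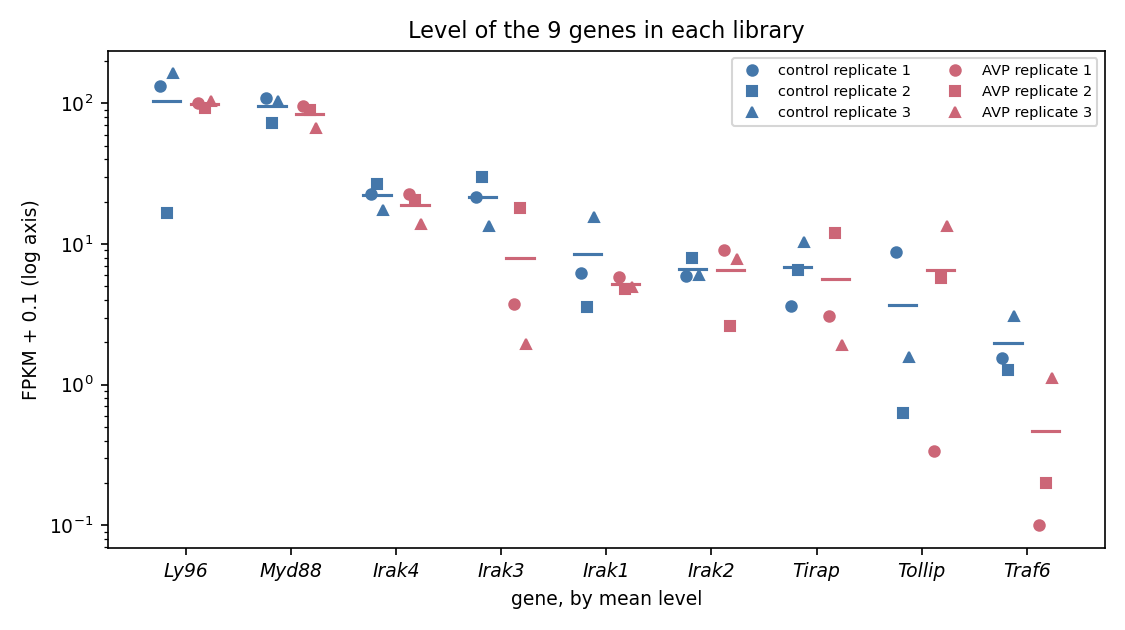
Level of the 9 genes in each of the 6 libraries, as FPKM + 0.1 on a log axis, with genes ordered by mean level. Circles, squares and triangles are replicates 1, 2 and 3 of the control (blue) and AVP (red) groups and lines are group means; Ly96 in control replicate 2, at 16.63 FPKM, stands far below its other 5 values.

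Upstream bases are shown for 2 genes. They are the abundant hub Myd88, the least variable of the 9, and the scarce ligase gene Traf6, the 1 of 9 whose groups did not overlap (14.0% of all features did not). Sequences are RefSeq promoter windows of GRCm38.p6, the assembly of the mm10 build, cut to the stretch that no annotated GENCODE M21 exon covers, and are written 5′ to 3′ on the strand of the gene. Capitals mark matches to GAGGAAG, a core of sites bound by the myeloid factor PU.1; lower case marks all other bases. The Traf6 stretch lies at chr2:101678170-101678419 on the plus strand and the Myd88 stretch at chr9:119340042-119340268 on the minus strand.
Traf6: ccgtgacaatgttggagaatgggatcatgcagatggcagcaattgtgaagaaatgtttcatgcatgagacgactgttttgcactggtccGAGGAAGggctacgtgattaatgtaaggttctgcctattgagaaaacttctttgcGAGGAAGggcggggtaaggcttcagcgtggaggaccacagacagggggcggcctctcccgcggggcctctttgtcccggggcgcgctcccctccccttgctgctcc
Myd88: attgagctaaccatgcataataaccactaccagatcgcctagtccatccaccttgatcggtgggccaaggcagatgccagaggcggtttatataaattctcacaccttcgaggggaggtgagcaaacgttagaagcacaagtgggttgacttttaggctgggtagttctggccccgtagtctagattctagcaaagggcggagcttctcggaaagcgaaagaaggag

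Windows of 250 bases before the start were available for 8 of the 9 genes and were searched on both strands for 4 motifs. GAGGAAG occurred at 161 and 106 bases before the Traf6 start, and in 10.6% of all 32851 promoter windows. The kappaB consensus, the site type bound by NF-kB, occurred in the windows of Irak1, and in 7.25% of all windows. It was the same site in overlapping Irak1 windows, beginning 21 or 18 bases before the start. Most of its bases are covered by an annotated exon. The AP-1 motif TGANTCA (6.75% of all windows) and TTGCNNAA, a form of the C/EBP site (9.56%), were not found in the windows of these genes. A match is a description of the letters, not a measured site.

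The AVP and control libraries were compared to ask whether these genes differed in blood neutrophils after 30 days of AVP. Of the 9 genes, limma called 0 higher and 0 lower (adjusted over all features, threshold 0.05), where the background was 0% of 8523 features. At an unadjusted p under 0.05 the count was 0 of 9, against 722 features (8.47%) among all tested, 4.72% higher and 3.75% lower. The fitted log2 fold change, on the log2(FPKM + 1) scale, was below 0 for 7 and above 0 for 2 of the 9 genes, with a median of -0.14, while 52.1% of all features tested lay below 0 with a median of -0.042. In 1 of the 9 genes, Traf6, all AVP libraries lay below all control libraries, and groups did not overlap in 14.0% of all features, 7.49% higher and 6.49% lower. All 9 genes passed the filter on low values (at least 1 FPKM in at least 3 libraries), 7 of them at 1 FPKM or more in all 6 libraries and 2, Traf6 and Tollip, in 4. Traf6 passed through its 3 controls, since 1 AVP library alone reached 1 FPKM.

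**Figure D2:**
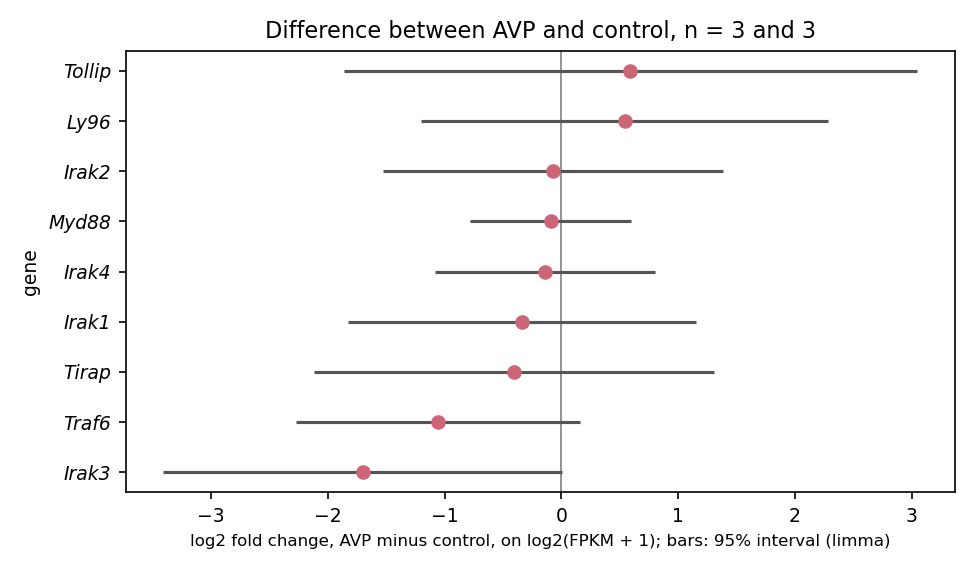
Fitted log2 fold change of each gene, AVP minus control, on the log2(FPKM + 1) scale, with 95% intervals from limma (3 libraries in each group). All 9 intervals include 0, from the narrow interval of Myd88 (-0.78 to 0.60) to the wide interval of Tollip (-1.87 to 3.05).

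Myd88, the hub adaptor (gene identifier 17874, chromosome 9 from 119335934 to 119340018, minus strand), was at 108.8, 72.56 and 104.6 FPKM in control replicates 1 to 3 and at 95.72, 89.02 and 66.76 FPKM in AVP replicates 1 to 3. The groups overlapped, and the highest value was 1.629 times the lowest. Controls averaged 95.3 ± 19.8 FPKM and AVP libraries 83.8 ± 15.2 FPKM (SD, n = 3). The fit gave -0.093 on the log2 scale (SE 0.30, adjusted p = 0.946 by limma) and a 95% interval of -0.78 to 0.60, which spans 0.582-fold to 1.51-fold. The sign turned without control replicate 1 (0.0067) and without AVP replicate 3 (0.077). The SD of Myd88 within groups was 0.317 on the log2 scale, higher than in only 11.1% of the features tested, for which the median was 0.756. That share is over features of all levels, not over those as abundant as Myd88.

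Tirap, which anchors MyD88 at the membrane below TLR2 and TLR4 (gene identifier 117149, chromosome 9 from 35184391 to 35200291, minus strand), was more than an order of magnitude less abundant in the mean. It was at 3.497, 6.483 and 10.32 FPKM in the controls and at 2.981, 11.83 and 1.802 FPKM after AVP. The AVP group held both the highest and the lowest value, and the log2 fold change was -0.41 (SE 0.75, 95% interval -2.12 to 1.31). Without AVP replicate 3 it was 0.056. The ratio of Tirap to Myd88 lay between 0.027 and 0.1329 across the libraries.

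Irak4, the first kinase of the complex (gene identifier 266632, chromosome 15 from 94543613 to 94568317, plus strand), was at 22.46, 26.55 and 17.42 FPKM in the controls and at 22.55, 20.47 and 13.87 FPKM after AVP. Its groups overlapped, and like Myd88 it varied little, with an SD within groups of 0.359 on the log2 scale. The log2 fold change was -0.14 (SE 0.41, 95% interval -1.08 to 0.80), and it was 0.0069 without control replicate 2 and 0.075 without AVP replicate 3.

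Irak1, the kinase that IRAK4 phosphorylates (gene identifier 16179, chromosome X from 74013914 to 74023921, minus strand), was at 6.129, 3.478 and 15.43 FPKM in the controls and at 5.713, 4.667 and 4.81 FPKM after AVP. Control replicate 3 stood apart, and all AVP values lay within the range of the controls. The log2 fold change was -0.34 (SE 0.65, 95% interval -1.83 to 1.15), and 0.17 without control replicate 3. Irak2, which sustains the late phase of the response (gene identifier 108960, chromosome 6 from 113638467 to 113695026, plus strand), was at 5.845, 7.852 and 5.902 FPKM in the controls and at 8.895, 2.533 and 7.744 FPKM after AVP. AVP replicate 2 was low and the other AVP libraries were near or above the highest control. The log2 fold change of Irak2 was -0.072 (SE 0.63, 95% interval -1.53 to 1.39), with the opposite sign without AVP replicate 2 (0.44) and without control replicate 2 (0.059).

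Traf6, the ubiquitin ligase below the IRAK kinases (gene identifier 22034, chromosome 2 from 101678420 to 101701668, plus strand), was at 1.451, 1.171 and 2.978 FPKM in the controls. In the AVP libraries it was listed at 0 in replicate 1, at 0.1002 FPKM in replicate 2 and at 1.009 FPKM in replicate 3. Every AVP value lay below every control value, though AVP replicate 3 was close to control replicate 2. The log2 fold change was -1.06 (SE 0.53, 95% interval -2.27 to 0.16) with an adjusted p of 0.661 by limma. A two-sided exact permutation test gave p = 0.1, the minimum possible for groups of 3. Any groups of 3 that do not overlap give that value, so it only restates the lack of overlap. Traf6 also passed the filter on low values through its controls. With a transcript of 6169 bases, these levels correspond to about 0 to 261 fragments per library, and an exact 0 can be a failed estimate. With a pseudocount of 0.1 in place of 1 the log2 fold change was -2.66, and with 5 it was -0.34.

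Irak3, the inhibitory IRAK-M (gene identifier 73914, chromosome 10 from 120141648 to 120202130, minus strand), had the largest fitted difference of the 9 genes at a pseudocount of 1; at 0.1 that of Traf6 was larger (-2.66, against -1.94 for Irak3). It was at 21.53, 29.86 and 13.39 FPKM in the controls and at 3.651, 17.9 and 1.843 FPKM after AVP. AVP replicates 1 and 3 lay below every control, whereas AVP replicate 2 lay within the range of the controls. Controls averaged 21.6 ± 8.23 FPKM and AVP libraries 7.8 ± 8.8 FPKM (SD, n = 3). The fitted log2 fold change was -1.70 (SE 0.74, 95% interval -3.41 to 0.0035). The unadjusted p was 0.0504 and the adjusted p 0.589 by limma, and a two-sided exact permutation test gave p = 0.2. Leaving out AVP replicate 2 gave -2.45 (unadjusted p = 0.00685, adjusted p = 0.32 by limma) and leaving out AVP replicate 3 gave -1.12. The adjusted p over all alternatives ranged from 0.32 to 0.82.

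Relative to Irak4 in the same library, Irak3 was at 0.9586, 1.125 and 0.7688 in the controls and at 0.1619, 0.8743 and 0.1329 after AVP. The AVP group again split, with replicate 2 among the controls. Irak3 is expressed in monocytes as well as neutrophils, and all 10 monocyte markers were found. Their summed level was 501.8, 800.4 and 1103 FPKM in the controls and 839, 1042 and 208.7 FPKM after AVP. It was lowest in AVP replicate 3, where Irak3 was lowest and the markers Cx3cr1, F13a1 and Fn1 were listed at 0, the last 2 of them also in control replicate 1. By contrast, AVP replicate 1, with the second lowest Irak3, had more monocyte marker RNA than control replicates 1 and 2. The part of monocyte RNA in the Irak3 difference was not tested.

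Tollip, an adaptor that binds IRAK1 and holds it inactive (gene identifier 54473, chromosome 7 from 141881580 to 141902461, minus strand), was the most variable of the 9 genes. It was at 8.66, 0.5292 and 1.482 FPKM in the controls and at 0.2394, 5.606 and 13.38 FPKM after AVP. The highest value was 55.91 times the lowest. Both groups held high and low libraries and overlapped widely. The log2 fold change was 0.59 (SE 1.07, 95% interval -1.87 to 3.05), and -0.19 without AVP replicate 3. The values correspond to about 13 to 854 fragments, and the SD within groups was 1.59 on the log2 scale, higher than in 89.5% of features tested, whatever their level. Summed T and NK cell markers, of which 10 of 10 were found and Cd3e, Cd8a and Cd4 were listed at 0 throughout, were at 15.14, 4.039 and 16.22 FPKM in the controls and at 2.415, 14.79 and 159.1 FPKM after AVP. Tollip and the marker sum were both highest in AVP replicate 3 and both lowest in AVP replicate 1 and control replicate 2. They parted in control replicate 3, where the sum was 16.22 FPKM and Tollip 1.482, against 15.14 and 8.66 in control replicate 1. In AVP replicate 3 most of the sum was Trac, Nkg7 and Trbc2, while Gzma was at its lowest (0.9717 FPKM). The part of T and NK cells in Tollip was not tested.

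Ly96, encoding MD-2 (gene identifier 17087, chromosome 1 from 16688456 to 16709605, plus strand), was at 132.1, 16.63 and 163.5 FPKM in the controls and at 99.86, 93.41 and 103.8 FPKM after AVP. Control replicate 2 was far below the other 5 libraries, and the AVP values lay between it and the other controls. Controls averaged 104 ± 77.4 FPKM and AVP libraries 99.0 ± 5.23 FPKM (SD, n = 3), so the mean FPKM was slightly higher in controls. On the log2 scale the fitted fold change was 0.54 (SE 0.76, 95% interval -1.20 to 2.28). Without control replicate 2 the log2 fold change was -0.47 (SE 0.29, unadjusted p = 0.146, adjusted p = 0.819 by limma). The low value corresponds to about 159 fragments, against 936 to 1468 in the other libraries, for a transcript of 632 bases. Summed neutrophil markers in control replicate 2, at 190447 FPKM, lay within the range of the other libraries. Most of that sum was S100a8 (121547 FPKM) and S100a9 (61986 FPKM). Of the markers in it, Cxcr2 (95.19 FPKM) and Ly6g (23.42 FPKM) were at their lowest in control replicate 2, and the others were not. The part of neutrophil content in the low Ly96 value was not tested. Tlr4, the receptor that MD-2 serves, was at 4.09, 4.783 and 6.529 FPKM in the controls and at 3.936, 4.409 and 1.232 FPKM after AVP, and was not low in control replicate 2.

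**Figure D3:**
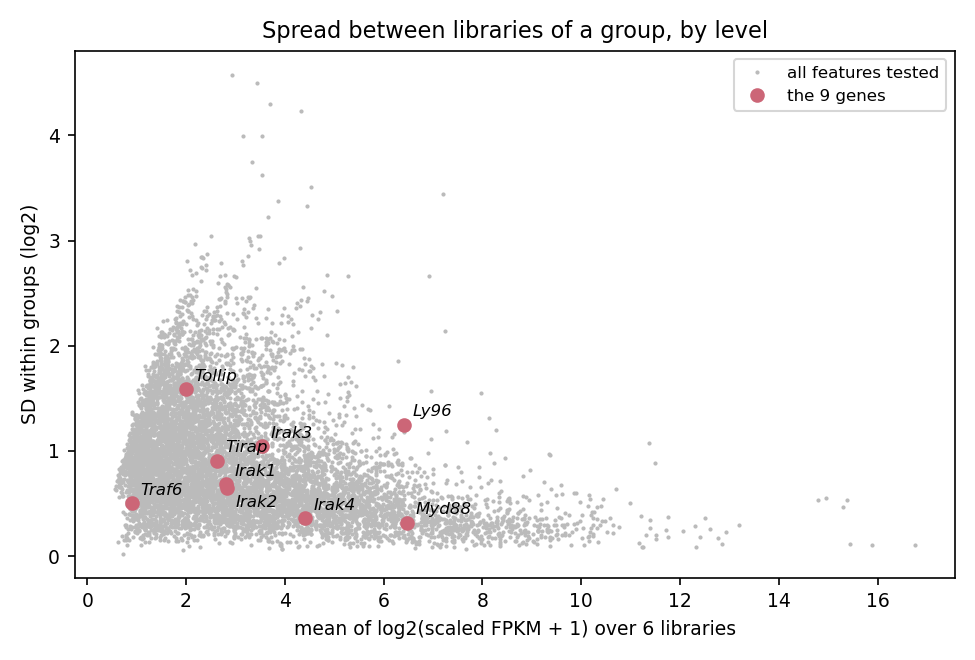
SD within groups (log2 scale, vertical axis) against the mean of log2(scaled FPKM + 1) over the 6 libraries (horizontal axis) for the 8523 features tested (grey) and the 9 genes (red). Myd88 and Ly96 have nearly the same level but an SD of 0.317 and 1.25, and Tollip has the highest SD of the 9 genes, 1.59.

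Some exons of these genes share bases with a gene on the opposite strand, and the sources used here do not state whether counting used strand. In GENCODE M21, Myd88 shares 290 exon bases with Acaa1a (mean 17.28 FPKM), Irak4 395 with Twf1 (17.69 FPKM), Irak3 192 with Tmbim4 (96.31 FPKM) and Tirap 39 with Srpr (9.161 FPKM). Reads from such bases cannot be told apart without strand.

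The features closest to Myd88 were found by the root mean square difference of centred log2 levels over the 6 libraries, among 7103 named genes. They were Atp5j2, a subunit of the mitochondrial ATP synthase, and Ncor1, a transcriptional corepressor (both 0.115), and Sirpb1c (0.122). For Tollip, the most variable member, they were the transporter gene Slc35b2 (0.314), the cytokine gene Flt3l (0.328) and Armc10 (0.347). Flt3l was at 7.884, 0.2817 and 1.273 FPKM in the controls and at 0, 9.184 and 15.74 FPKM after AVP. These genes were selected for their likeness over the same libraries, so it is a description only.

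The route above and below these genes was described by 6 further lists, in which 0 members were called in either direction by limma at an adjusted p under 0.05. Of the 26 receptors and co-receptors, 17 were tested, 9 with a log2 fold change above 0 and 8 below (median 0.062), and Tlr9, Tlr11, Tlr12, Lbp, Il1r1 and Il1rl2 were listed at 0 in all libraries. Tlr2, a sensor of bacterial lipoproteins, was at 38.24, 9.924 and 18.75 FPKM in the controls and at 65.37, 116 and 128.9 FPKM after AVP. Those groups did not overlap, and the adjusted p by limma was 0.195. Tlr1, which pairs with TLR2, lay the other way, at 12.63, 13.14 and 4.513 FPKM in the controls and at 0, 4.28 and 0.3178 FPKM after AVP. Its fitted log2 fold change was -2.39 (SE 0.82, adjusted p = 0.427 by limma). Cd14, a co-receptor gene named after its values were seen, was the other gene of the list without overlap. It was at 0.1394, 10.6 and 27.29 FPKM in the controls and at 64.61, 90.69 and 30.11 FPKM after AVP (adjusted p = 0.451 by limma). Of the 17 tested, 2 lay higher and 1 lower without overlap, against 7.49% and 6.49% of all features. Ly86, which encodes MD-1, a relative of MD-2, averaged 133 ± 54.3 FPKM in control and 74.7 ± 60 FPKM in AVP libraries (SD, n = 3).

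In the TRIF arm, the route to interferon that bypasses MyD88, 6 of 10 genes were tested, 3 above 0 and 3 below. The kinase gene Tbk1 was at 15.1 ± 7.37 and 6.94 ± 6.28 FPKM in control and AVP libraries, and the transcription factor genes Irf3 at 10.1 ± 5.18 and 14.2 ± 7.51 FPKM and Irf7 at 61.6 ± 21.9 and 57.4 ± 23.6 FPKM (SD, n = 3). Tank, an adaptor of TBK1, was at 16.5 ± 9.98 and 11.4 ± 4.59 FPKM. Ticam1, which encodes TRIF itself, did not pass the filter: it was at 0.7636, 0 and 2.298 FPKM in the controls and at 0, 2.766 and 0 FPKM after AVP. Thus in every library Myd88 was listed far above Ticam1.

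Of the 15 tested genes of the TAK1, ubiquitin and IKK steps, 11 lay below 0 and 4 above (median -0.50), against 52.1% below 0 among all features. Sharpin, a subunit of the linear ubiquitin ligase, was at 13.55, 24.02 and 18.5 FPKM in the controls and at 8.019, 11.4 and 7.36 FPKM after AVP, with groups that did not overlap and an adjusted p of 0.664 by limma. Rnf31, the catalytic subunit of the same ligase, named after its values were seen, was the other gene of the list without overlap. It lay the other way, at 7.249, 5.859 and 4.013 FPKM in the controls and at 8.449, 8.321 and 8.099 FPKM after AVP (adjusted p = 0.830 by limma). Of the 15 tested, 1 lay higher and 1 lower without overlap, near the 7.49% and 6.49% of all features. The ubiquitin receptor gene Sqstm1 was fitted at -1.14 (SE 0.71) on the log2 scale, and Peli1, a ubiquitin ligase that binds IRAK proteins, at -0.50 (SE 0.38). The MAP kinase list had 13 tested members, 6 above 0 and 7 below (median -0.37), with Mapk14, encoding p38 alpha, at 0.71 (SE 0.38) and Mapk3, encoding ERK1, at 0.77 (SE 0.47). Of the other TRAF adaptors 4 were tested, 1 above 0 and 3 below, with Traf5 at -0.87 (SE 0.81) and Traf7 at -0.57 (SE 0.72).

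Among 18 tested inhibitors outside the 9 genes, 10 lay above 0 and 8 below (median 0.11). Tnfaip3, the ubiquitin-editing enzyme A20 that acts on TRAF6, was at 1.37, 7.19 and 4.068 FPKM in the controls and at 55.33, 40.14 and 45.41 FPKM after AVP. The groups were far apart, with a log2 fold change of 3.44 (SE 0.56) and an adjusted p of 0.109 by limma. The decoy receptor gene Il1r2 was fitted at 1.84 on the log2 scale (SE 0.35, adjusted p = 0.159 by limma). Il1rn, the interleukin-1 receptor antagonist, averaged 141 ± 14.8 FPKM in control and 166 ± 13.6 FPKM in AVP libraries (SD, n = 3). Of the 18 tested, 3 lay higher and 0 lower without overlap, against 7.49% and 6.49% of all features. Irak3 and Tollip, the inhibitors among the 9 genes, had log2 fold changes of -1.70 and 0.59; whether members of this group differ from each other in response was not tested.

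**Figure D4:**
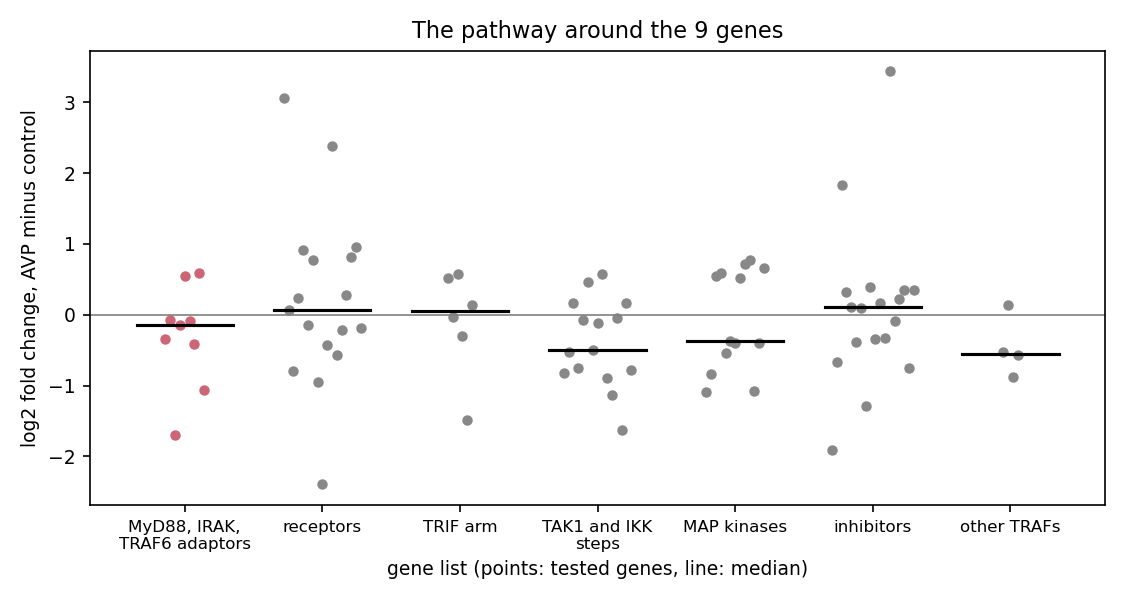
Fitted log2 fold change, AVP minus control, of each tested gene in the 9 adaptor genes (red) and in 6 lists around them (grey), with the median of each list as a line. The adaptors have a median of -0.14 and the TAK1 and IKK steps one of -0.50, and the highest point among the inhibitors is Tnfaip3 at 3.44.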

How the data were processed

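Total RNA of sorted blood neutrophils was turned into TruSeq libraries for paired-end NovaSeq sequencing, per the labels' protocols. The submitters' processing notes name bcl2fastq 2.19, cutadapt 1.16.5, HISAT2 2.1, featureCounts 1.6.4, DESeq2 2.11.40.6 and mm10; what each tool did, and with which annotation, is not stated there. The deposited values are read as FPKM: the files name no unit, and values are not whole and have totals that differ between libraries. Depth was estimated from the value that 1 fragment gives in short pseudogenes, and fragment numbers from it and a GENCODE M21 transcript length are approximate.

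A trimmed mean of log ratios (dropping 30% of ratios, 5% of levels per tail) set the library scaling, which printed FPKM do not include. Features reaching 1 FPKM in 3 or more libraries stayed, and log2(FPKM + 1) was tested over all 8523 of them with limma 3.58.1 in R 4.3.3 with an intensity trend and Benjamini-Hochberg adjustment, without a term for the replicate number. The procedure was tested on simulated data, with changes placed only in the more abundant features. It recovered 7 of 67 changes of 1 on the log2 scale, 50 of 67 of 2 and 66 of 66 of 4, with 6 false calls. Most changes of 1 were thus missed. The noise was drawn from the variances that limma fitted, so recovery in real data can be lower. The rates do not cover scarce features such as Traf6 and Tollip. In the measured data Tnfaip3, fitted at 3.44, was not called (adjusted p = 0.109 by limma). Exact permutation tests used scipy 1.17.1. All members were named; from each pathway list with no call, the 2 genes with the smallest p and the 2 with the highest mean. Tlr4, Ticam1, Cd14, Rnf31 and marker genes were read outside that rule. Members and lists were chosen with earlier results of these data known. The alternatives were other scalings, filters, pseudocounts and variance settings, a replicate block and leaving out each library.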

Additional observations from a re-analysis of the deposited data

How the results depend on the processing

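Over 143 alternative values of the 9 genes, 0 were called by limma, the smallest adjusted p being 0.32. The 89 values from other scalings, filters, pseudocounts and variance settings and from the replicate block kept their direction; Traf6 has no value under the filter of 5 FPKM in 3 libraries, which it did not pass. Of the 54 values with a library left out, 10 turned: Irak1 to 0.17 without control replicate 3; Irak2 to 0.059 without control replicate 2 and 0.44 without AVP replicate 2; Irak4 to 0.0069 without control replicate 2 and 0.075 without AVP replicate 3. Myd88 turned to 0.0067 without control replicate 1 and 0.077 without AVP replicate 3, Ly96 to -0.47 without control replicate 2, and without AVP replicate 3 Tirap turned to 0.056 and Tollip to -0.19. The cause was not tested. With each library left out, values ranged from -0.75 to 0.17 for Irak1, -0.40 to 0.44 for Irak2, -0.33 to 0.075 for Irak4, -0.47 to 1.12 for Ly96, -0.26 to 0.077 for Myd88, -1.01 to 0.056 for Tirap and -0.19 to 1.58 for Tollip. Irak3 and Traf6 kept their direction under every alternative run that gave them a value.

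Over all features, the number called went from 0 to 11 with the filter of 5 FPKM, which tests fewer features, to 3 with a pseudocount of 5 and to 1 with no intensity trend. With each library left out it ranged from 0 to 4, the 4 arising without control replicate 3. None of these was among the 9 genes. The replicate block called 0 features, as did the fit without it, and gave Irak3 an unadjusted p of 0.0246 and an adjusted p of 0.557 by limma. Deviations of same-numbered libraries correlated at 0.0205, -0.0129 and -0.0423, so the numbers were not taken to pair samples. With 3 libraries a group, no exact permutation test can pass 0.05.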
